A study of Mus musculus with 12 samples.

Results

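The 39 Hox genes of the mouse were followed through Pdgfra/GFP+ cells of 2 regions and 2 ages. They were taken from 47069 distinct gene identifiers as every gene whose symbol is Hox, a cluster letter a to d and a number. Fluorescent cells were sorted from mice of the Pdgfra-H2BGFP line, in which a histone-bound nuclear GFP is made from the Pdgfra locus. The 4 groups were E13.5 brain, E13.5 spinal cord, P7 brain and P7 spinal cord, with 3 total RNA libraries each. E13.5 stands for an embryonic day and P7 for a postnatal day, and all 4 groups carried the same reporter and no other allele or treatment. The study's methods give the brain tissue as forebrain, each sample as a pool of animals of both sexes, and the P7 gate as the brightest GFP+ cells. Histone-bound GFP is stable, so a sorted cell need not still have transcribed Pdgfra. E13.5 tissue was dissociated mechanically and P7 tissue with papain, so age and dissociation cannot be told apart, nor can age and the gate.

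Hox genes encode homeodomain transcription factors that give cells along the body axis their position. They lie in 4 clusters, and genes with the same number in different clusters are paralogs, descended from 1 ancestral gene. Low numbers are switched on first and furthest forward, from the hindbrain on, and high numbers later and nearer the tail. The forebrain lies ahead of all Hox domains, whereas neurons and glial precursors of the spinal cord keep a Hox code that is known for assigning motor neurons to cervical, brachial, thoracic and lumbar levels.

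On the mouse build GRCm38, cluster a held 11 of the genes on chromosome 6 (52155590 to 52260880, minus strand) and cluster b held 10 on chromosome 11 (96194316 to 96368256, plus strand). Cluster c held 9 genes on chromosome 15 (102921103 to 103036852, plus strand) and cluster d held 9 on chromosome 2 (74668310 to 74765142, plus strand). Hoxb13 stood 74.0 kb from its nearest Hox gene, Hoxb9, and Hoxd1 stood 14.5 kb from its nearest, Hoxd3.

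RefSeq promoter windows (GRCm38.p6) were found for 22 of the 39 genes. The stretches of 250 bases before the start site of Hoxd8, Hoxb8 and Hoxa13 are shown because Hoxd8 and Hoxb8, paralogs of number 8, moved in opposite directions with age in the spinal cord and Hoxa13 had the largest rise. Each runs 5′ to 3′ in the direction of its gene, Hoxd8 from chr2:74704365-74704614 on the plus strand, Hoxb8 from chr11:96281655-96281904 on the plus strand and Hoxa13 from chr6:52260881-52261130 on the minus strand. Capitals mark TTTATG on either strand, the core of the motif bound by the Cdx factors that act on Hox genes in the embryo. RNA of the Cdx genes was itself nearly absent from these libraries, as given below.
Hoxd8: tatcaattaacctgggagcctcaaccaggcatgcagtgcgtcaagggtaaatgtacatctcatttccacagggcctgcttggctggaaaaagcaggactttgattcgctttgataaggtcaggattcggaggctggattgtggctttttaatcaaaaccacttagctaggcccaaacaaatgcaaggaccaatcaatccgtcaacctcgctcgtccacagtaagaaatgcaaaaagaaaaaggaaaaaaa
Hoxb8: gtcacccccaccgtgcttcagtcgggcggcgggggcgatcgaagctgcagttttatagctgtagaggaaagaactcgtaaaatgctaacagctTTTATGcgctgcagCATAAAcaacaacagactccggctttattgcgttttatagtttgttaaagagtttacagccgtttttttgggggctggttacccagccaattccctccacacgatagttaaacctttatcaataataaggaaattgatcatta
Hoxa13: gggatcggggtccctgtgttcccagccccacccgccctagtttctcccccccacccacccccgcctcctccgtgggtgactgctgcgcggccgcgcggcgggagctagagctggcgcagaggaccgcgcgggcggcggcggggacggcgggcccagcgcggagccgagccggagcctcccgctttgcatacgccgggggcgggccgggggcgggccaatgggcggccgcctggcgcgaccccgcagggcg
The Hoxb8 window held TTTATG at 2 places, 1 on each strand, and the Hoxd8 and Hoxa13 windows held none. Over all 32851 mouse windows of this length 10.8% held it, and 5 of the 24 windows of the 22 Hox genes did. The letters TGATTNAT, bound by Pbx and Hox proteins together, were in 2 of the 24 Hox windows and in 2.8% of all windows. They were in none of the 3 stretches shown, so no overlap with TTTATG arose there. The windows also differed in CpG content: Hoxa13 had 35 CpG pairs, a count reached by 3.0% of all windows, Hoxb8 had 12 and Hoxd8 had 6, against a median of 12.5 over the Hox windows and 6 over all windows.

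Values are CPM, the reads of a gene per 1000000 reads of a rescaled library size, and 12566345 to 38790312 reads per library lay behind them. A value of 3 reads corresponded to between 0.079 and 0.506 CPM, the highest being that of E13.5 spinal cord replicate 3. That library stands apart. Its log2 ratios to its replicates had an SD of 0.628 and 0.582 over 7799 well covered genes, against 0.183 between replicates 1 and 2, so the changes it moved most are also given without it. Replicates 1 and 2 were closest to each other in both P7 groups (SD 0.075 in spinal cord and 0.076 in brain), and the labels do not say how the pools, biological replicates by the study's methods, were formed, so p-values measure the spread between these samples. Forebrain factors such as Dlx1 and Dlx2, a list of 6, summed to 138.6 to 201.9 CPM in E13.5 brain and 44.7 to 60.9 in P7 brain, against 2.5 to 2.53 and 0.80 to 1.05 in spinal cord of the same ages, as the region labels have it. Precursor genes such as Pdgfra and Sox10, a list of 6, were present in all libraries and summed to 8241 to 8673 CPM at P7. At E13.5 they summed to 795.2 to 1406 CPM in brain and 511.7 to 776.9 in spinal cord.

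At E13.5 the spinal cord cells expressed genes of all 4 clusters. Summed over the 39 genes, replicates 1, 2 and 3 held 905.1, 873.2 and 744.6 CPM. At P7 the sum was 347.9, 341.4 and 348.4 CPM, 41.1% of the E13.5 mean. In these values no P7 library came near an E13.5 library. For E13.5 replicate 3 this rests on the scaling. Its library size was rescaled by 0.472, those of the other spinal cord libraries by 0.955 to 1.199. Before scaling it had 4413 Hox reads among 12566345, a share similar to that of P7 replicate 3, with 11229 among 32177052. In these bulk samples fewer Hox-expressing cells and less Hox RNA per cell cannot be told apart.

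The clusters did not shrink alike. The cluster b sum at P7 was 16.0% of its E13.5 mean and the cluster c sum was 21.3%. Cluster a kept 61.7%, and the cluster d sum was 117% of its E13.5 mean. Hoxd8 made that value: the other 8 genes of cluster d summed to 74.3 ± 5.53 CPM at E13.5 and 34.1 ± 1.61 at P7 (SD, n = 3), 45.9% of their E13.5 mean. The share of all Hox CPM held by cluster b was 39.1% ± 2.5 (SD, n = 3) at E13.5 and 15.1% ± 0.402 at P7. The share of cluster d was 10.4% ± 1.64 and then 29.2% ± 0.416, that of cluster a 29.8% ± 2.64 and then 44.8% ± 0.472, and that of cluster c 20.7% ± 1.39 and then 10.8% ± 0.104. Without Hoxd8 cluster d held 8.95% ± 1.64 and then 9.86% ± 0.420 of the whole Hox sum, so the larger share of the cluster was that of 1 gene. For each whole cluster the share in all 3 P7 libraries lay outside the range of the 3 E13.5 libraries.

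**Figure D1:**
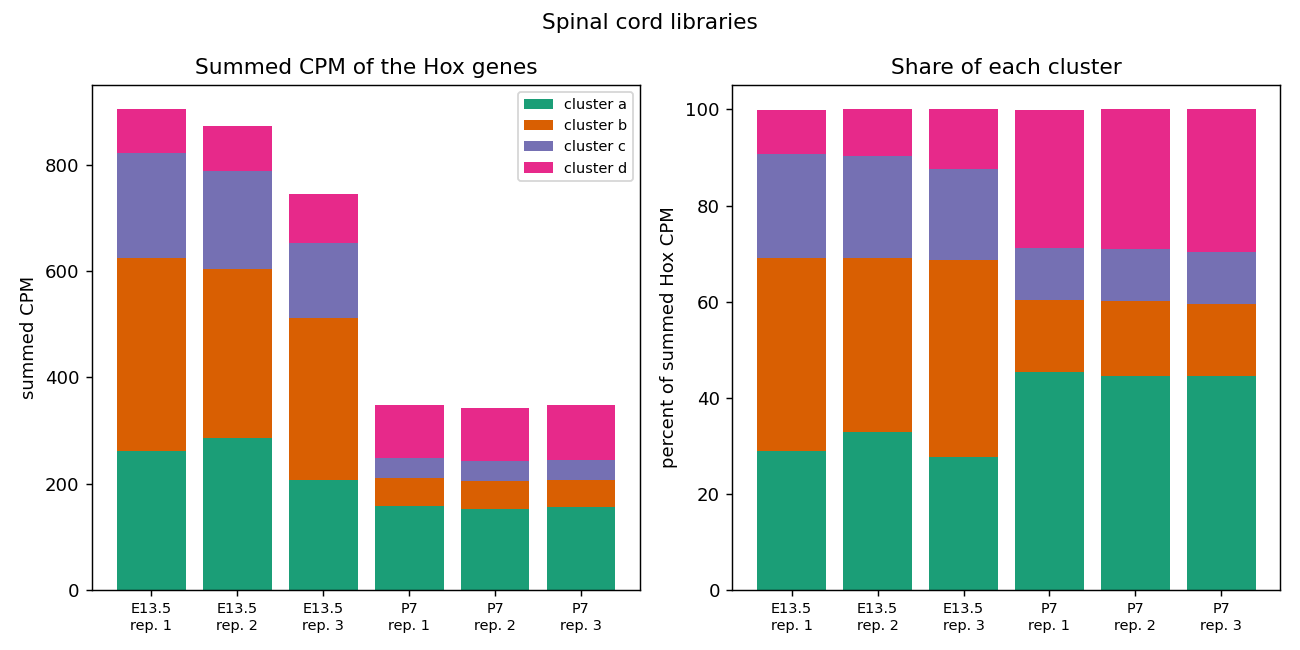
Summed CPM of the 39 Hox genes (left, bars from 0) and the percent of that sum held by each cluster (right) in each of the 6 spinal cord libraries. Cluster b held 36.3% to 40.9% of the sum at E13.5 and 14.9% to 15.6% at P7, while cluster d rose from between 9.19% and 12.3% to between 28.8% and 29.7%, of which Hoxd8 made 19.4% of the sum.

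Per kilobase of exon, a scale on which genes can be set against each other, Hoxb9 had the highest E13.5 level with 33.1 CPM per kb. Hoxa5 (23.3) and Hoxb6 (22.8 CPM per kb) came next. At P7 the order was another one, led by Hoxd8 with 24.4 CPM per kb, then Hoxa10 with 10.2 and Hoxa7 with 9.33. The former leader Hoxb9 stood at 0.25 CPM per kb. Unscaled, Hoxd8 alone held 19.4% of the summed Hox CPM at P7, and Hoxd8, Hoxa9 and Hoxa10 together held 40.0%. These gene lengths take in every annotated exon, so a gene with long rare isoforms, such as Hoxa3, is placed low.

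**Figure D2:**
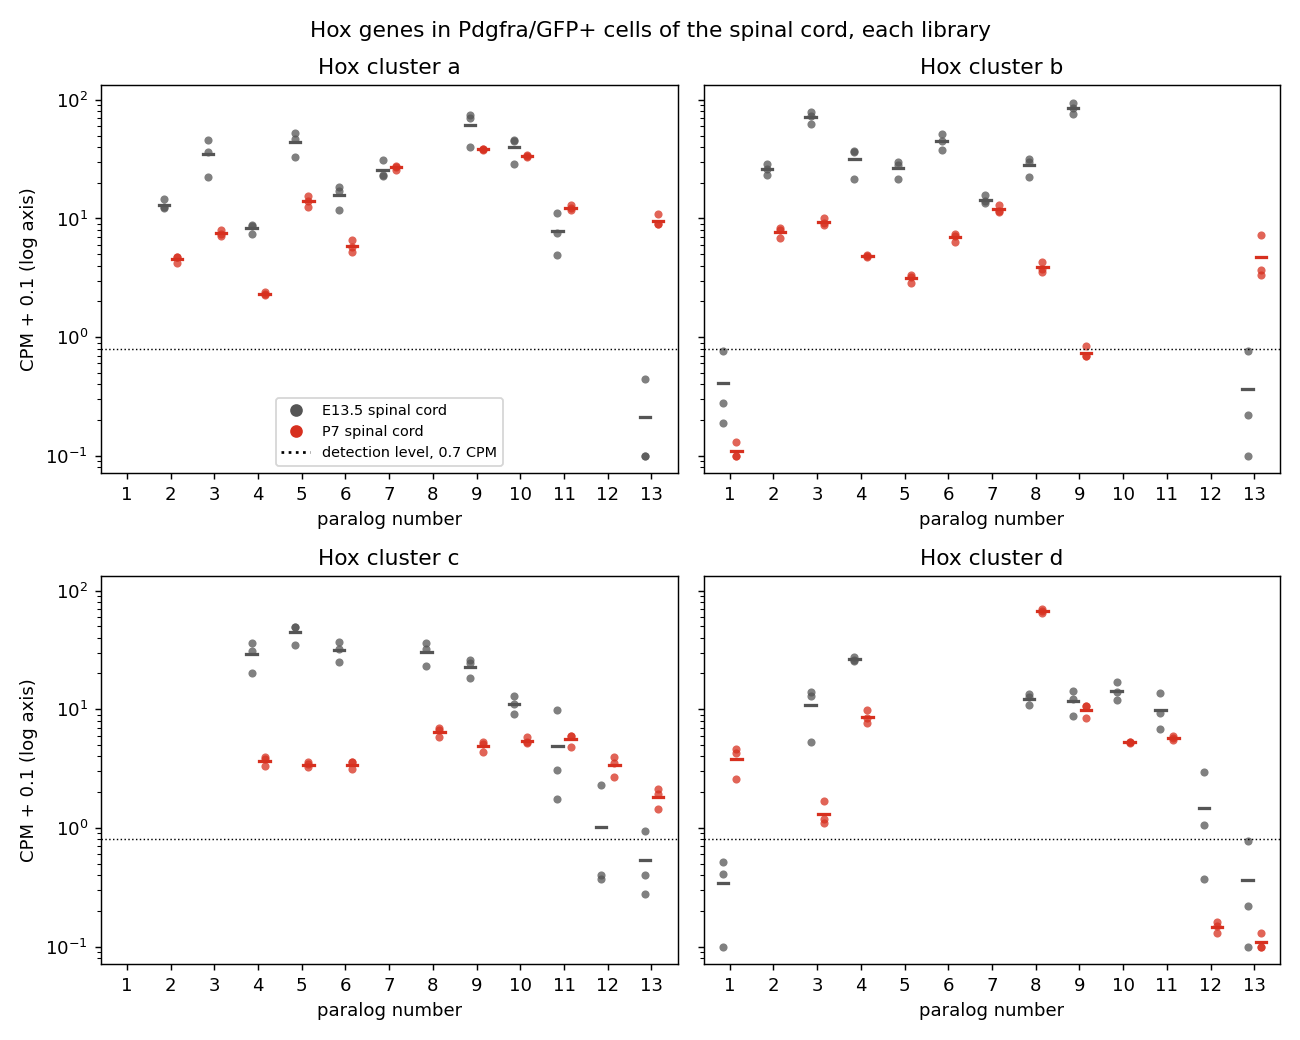
CPM of 38 Hox genes in the 3 E13.5 and 3 P7 spinal cord libraries, by cluster and paralog number, on a log axis after adding 0.1. Points are libraries, short bars are means and the dotted line is the detection level of 0.7 CPM. Mean Hoxb9 went from 85.3 to 0.64 CPM, Hoxd8 from 12.2 to 67.0 and Hoxa13 from 0.11 to 9.49.

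Which genes remained in P7 spinal cord was read from a detection level of 0.7 CPM in all 3 libraries of a group. By that measure 30 of the 39 genes were kept, 1 was partly lost, 0 were lost outright, 5 reached the level in all libraries at P7 alone and 3 did so at neither age. Cluster a kept 10 of 11 genes, cluster b 7 of 10, cluster c 7 of 9 and cluster d 6 of 9. Every gene of paralog numbers 2 to 8 and of 10 and 11 was kept, and no gene of numbers 12 and 13 was. The partly lost gene was Hoxb9. The 5 genes that appeared were Hoxa13, Hoxb13, Hoxc12, Hoxc13 and Hoxd1, and the 3 that met the rule at neither age were Hoxb1, Hoxd12 and Hoxd13. Of these Hoxd12 was above the level in 2 of the 3 E13.5 libraries. It was too low for the limma test, and without the filter on low values it was called, for age in spinal cord and for region at E13.5. Close to the level, Hoxd3 had 1.00, 1.08 and 1.58 CPM at P7 and was still kept, while Hoxb9 had 0.59, 0.74 and 0.59. At a level of 2 CPM the lost genes were 2, Hoxb9 and Hoxd3.

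Being kept did not mean being kept at the same level. The limma test on log2(CPM + 0.5) took in 36 of the 39 genes, those that reached 0.7 CPM in 3 or more libraries, and left out Hoxb1, Hoxd12 and Hoxd13. A call needed a change of more than 2-fold and a p under 0.05 after Benjamini-Hochberg adjustment over all 18319 tested genes. In spinal cord 20 of the 36 were called lower at P7, where 18.2% of all genes tested were. Another 6 were called higher, against 16.9% of all genes, and 10 were not called. Of the 6 higher, all but Hoxd8 passed the filter only with the P7 spinal cord libraries, where they were high. The genes left out, Hoxb1, Hoxd12 and Hoxd13, had lower means at P7, so these counts depend in part on the filter. Without it 27 genes were called, with Hoxd12 added as lower. The median change of the 36 was -1.40 on the log2 scale, that of all genes tested 0.12. Of the 30 kept genes 19 were called lower, 1 higher (Hoxd8) and 10 neither way. Without E13.5 spinal cord replicate 3 the counts were 21 lower and 7 higher, with Hoxc10 and Hoxc11 added. Fold changes on this scale understate those of genes with low values.

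**Figure D3:**
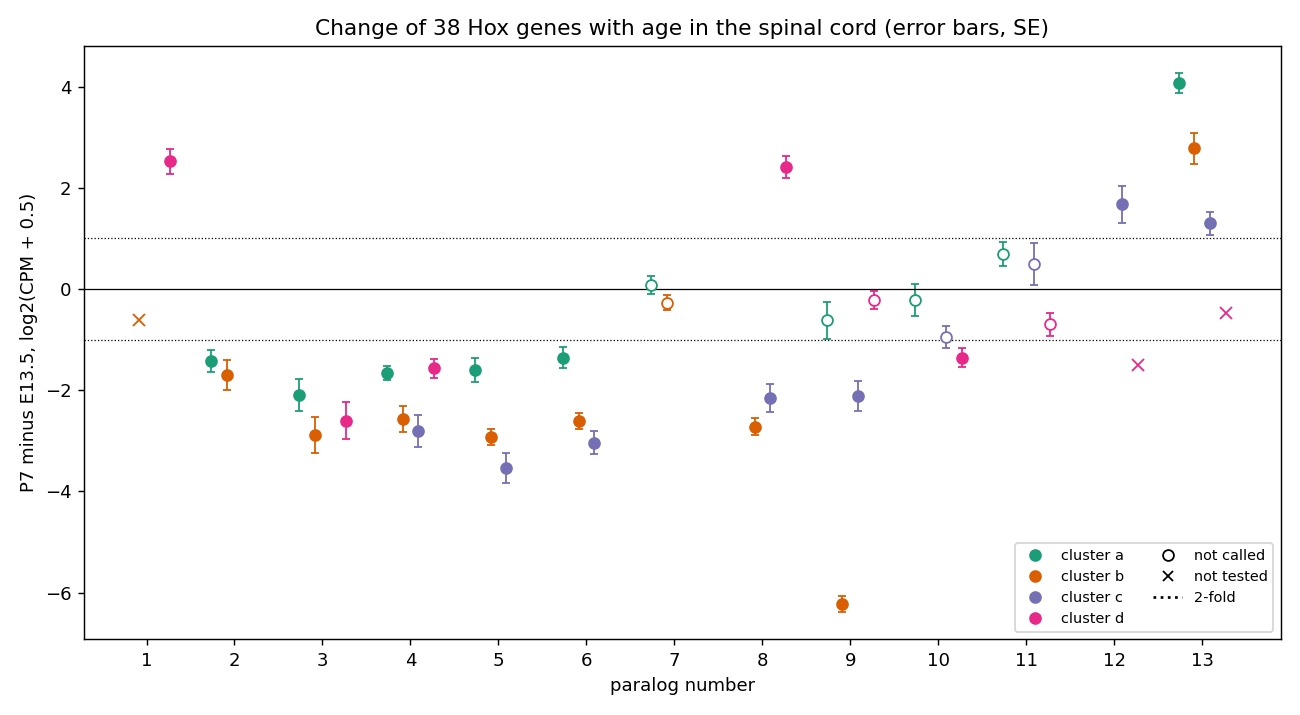
Change from E13.5 to P7 in spinal cord, in log2(CPM + 0.5) with its SE, for 38 Hox genes against their paralog number. Filled points were called by limma, open points were tested and not called, crosses were not tested and dotted lines mark 2-fold. Numbers 2 to 6 lie below -1 in every cluster, number 13 lies above 1 for 3 of its 4 genes, and numbers 8 and 9 span the widest ranges.

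The direction followed the paralog number in part. Of the 12 genes numbered 1 to 4, 9 were called lower and 1 higher, with a median change of -1.68 over the 12. Of the 15 numbered 5 to 9, 10 were lower and 1 higher, with a median of -2.11. Of the 12 numbered 10 to 13, 1 was lower (Hoxd10) and 4 were higher, with a median of 0.14, or 0.43 without E13.5 spinal cord replicate 3. The 4 higher genes passed the filter only with the P7 spinal cord libraries. Hoxd12 and Hoxd13, both with a lower mean at P7, were left out by it. Summed CPM fell from 252.9 ± 37.8 to 54.2 ± 4.04 for numbers 1 to 4 and from 497.6 ± 69.0 to 205.4 ± 2.29 for 5 to 9 (SD, n = 3). For numbers 10 to 13 it was 90.5 ± 21.3 and 86.3 ± 6.15, a difference within the spread of the E13.5 libraries.

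The order along the cluster was clear in c and a and not in b and d. Across genes, which share libraries and are not independent replicates, the Spearman correlation of the change with paralog number was 0.93 over the 9 genes of cluster c (Pearson 0.93) and 0.65 over the 11 of cluster a (Pearson 0.73). It was -0.042 over the 10 of cluster b (Pearson 0.23) and -0.067 over the 9 of cluster d (Pearson -0.20). In cluster c the change ran from -3.54 for Hoxc5 and -3.04 for Hoxc6 through -0.95 for Hoxc10 to 1.67 for Hoxc12. In cluster b, Hoxb7 changed by -0.27 between Hoxb6 (-2.61) and Hoxb8 (-2.72), and Hoxb9 by -6.23. In cluster d the rises were at the numbers 1 and 8.

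The largest fall was that of Hoxb9, a gene expressed from the thoracic cord on. It had 94.6, 76.0 and 85.2 CPM in E13.5 spinal cord and 0.59, 0.74 and 0.59 CPM in P7 spinal cord. The P7 libraries thus held 0.752% of the E13.5 mean, and no library of one age came near the other. The change was -6.23 ± 0.16 (log2, SE; limma, Benjamini-Hochberg adjusted p 5.46e-11). Its cluster neighbour Hoxb8 had 29.9, 22.3 and 31.9 CPM and then 3.67, 4.23 and 3.44, a change of -2.72 ± 0.16.

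Other paralogs of number 9 behaved otherwise. Hoxa9 had 69.5, 74.7 and 39.6 CPM at E13.5 and 38.3, 38.5 and 37.8 at P7. All P7 values lay below the lowest E13.5 value, by little, and the change of -0.62 ± 0.37 was not called (limma, Benjamini-Hochberg adjusted p 0.150). Hoxc9, which sets the brachial to thoracic boundary of motor columns, had 24.2, 25.9 and 18.1 CPM and then 5.21, 4.29 and 4.99, a called change of -2.11. Hoxd9 had 8.64, 12 and 14.2 CPM and then 10.5, 8.30 and 10.5, with overlapping groups and a change of -0.22. Number 9 therefore had the widest range of changes of any paralog number, 6.01 on the log2 scale.

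Hoxc5 and Hoxc6 had the next largest falls. Hoxc5, whose Hox5 group is needed for phrenic motor neurons, had 49.3, 49.3 and 34.6 CPM at E13.5 and 3.13, 3.33 and 3.47 at P7. That was a change of -3.54 ± 0.29 (limma, Benjamini-Hochberg adjusted p 2.52e-07), and the groups were far apart. Hoxc6, a gene of the brachial cord, had 36.5, 32.1 and 25.0 CPM and then 3.46, 3.49 and 3.01, a change of -3.04 ± 0.23 (limma, Benjamini-Hochberg adjusted p 1.31e-07). Their cluster a paralogs fell less: Hoxa5 had 31.7% of its E13.5 mean left and Hoxa6 had 36.5%, against 7.46% for Hoxc5 and 10.6% for Hoxc6. The difference between paralogs was not tested. Hoxc5 and Hoxc10 share annotated exons, 5.4% of the exon bases of Hoxc5.

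The hindbrain and cervical numbers fell in every cluster that has them, apart from number 1. At number 2, Hoxa2 and Hoxb2 changed by -1.43 and -1.70, at number 3 Hoxa3, Hoxb3 and Hoxd3 by -2.10, -2.89 and -2.60, and at number 4 the 4 genes by between -2.81 (Hoxc4) and -1.57 (Hoxd4), all called. Hoxb3, among the most abundant Hox genes at E13.5 with 78.7, 72.7 and 62.9 CPM, had 8.99, 9.90 and 8.69 at P7. The libraries of the 2 ages were wide apart for it. Whether reads were counted by strand is not stated, and 52.9% of the exon bases of Hoxb3 lie opposite the antisense gene Hoxb3os. Hoxd3 shares 62.8% of its exon bases with other genes and Hoxd4 52.3%, so their counts are uncertain.

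Numbers 5, 6 and 8 fell likewise outside Hoxd8. Hoxb5 changed by -2.92, Hoxb6 by -2.61, Hoxa5 by -1.60, Hoxa6 by -1.36 and Hoxc8 by -2.15, each called. At P7 they retained between 11.4% (Hoxb5) and 36.5% (Hoxa6) of their E13.5 mean. Hoxd10, of the group that patterns the lumbar cord, was the only gene above number 9 called lower, with 11.9, 13.8 and 16.7 CPM and then 5.13, 5.15 and 5.21. Its change was -1.36 ± 0.19. Hoxc10 (-0.95) missed the 2-fold limit here and was called lower with median-ratio scaling, limma-voom and edgeR.

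Neither gene of number 7 was called. Hoxa7 had 30.7, 23.0 and 22.9 CPM at E13.5 and 27.8, 25.4 and 27.3 at P7, with the P7 values inside the E13.5 range. Hoxb7 had 15.7, 13.3 and 14 CPM and then 11.4, 12.9 and 11.2, slightly lower without overlap. Their changes were 0.08 ± 0.17 and -0.27 ± 0.15. Hoxa7 lies opposite Hoxaas3 over 20.4% of its exon bases.

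Of the lumbar numbers, Hoxa10 had 28.6, 45.3 and 45.0 CPM and then 33.2, 32.6 and 34.1, inside the E13.5 range. Hoxa11 had 4.82, 7.47 and 11.1 CPM and then 11.7, 12.1 and 12.9, and its change of 0.69 ± 0.23 passed the adjusted p of 0.05 (limma, Benjamini-Hochberg 0.0164) but not the 2-fold limit. The lowest P7 value of Hoxa11 lay just above its highest E13.5 value. Hoxc10 (-0.95) and Hoxd11 (-0.70) lay below 2-fold too, and Hoxc11 (0.49) had E13.5 libraries from 1.64 to 9.79 CPM around its P7 values.

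Hoxd8 rose while its paralogs fell. It had 13.3, 12.5 and 10.8 CPM in E13.5 spinal cord and 64.4, 66.5 and 70.1 CPM in P7 spinal cord, a ratio of means of 5.49. All P7 libraries were several times above all E13.5 libraries. The change was 2.41 ± 0.22 (limma, Benjamini-Hochberg adjusted p 7.55e-07). Of the adjacent genes, Hoxd9 was 4.4 kb away and was not called. On the other side the annotated starts of Hoxd3 (74711927) and Hoxd4 (74711929) nearly coincide, 4.0 kb away. Hoxd4 fell to 32.7% of its E13.5 mean and Hoxd3 to 11.4%, with the counts of both uncertain because of shared exons.

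Hoxa13, a gene of limb tips, hindgut and genital tubercle, had the largest rise. Replicates 1 and 2 of E13.5 spinal cord had 0 reads of it and replicate 3 had 0.34 CPM, 2 reads in all. The P7 libraries had 8.80, 8.82 and 10.9 CPM, from 962 reads. The ratio of pooled reads, scaled for library size, was 214 with a 95% exact interval of 59.0 to 1770 that covers counting error only. The limma change was 4.07 ± 0.20 (Benjamini-Hochberg adjusted p 3.57e-09). Without E13.5 replicate 3 no E13.5 read was left, and P7 was at least 124-fold higher, with 3 reads over the 2 libraries as the floor.

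Hoxb13, known for limiting the length of the tail, had 0.12, 0.00 and 0.67 CPM at E13.5 and 3.59, 3.24 and 7.17 at P7. All P7 libraries were above all E13.5 libraries, P7 replicate 3 most. Its change was 2.78 ± 0.31 (limma, Benjamini-Hochberg adjusted p 4.60e-06), and the pooled reads gave a ratio of 34.8 (95% exact interval 15.8 to 95.2). Without E13.5 replicate 3, which held 4 of the 6 E13.5 reads, the ratio was 90.6 (24.9 to 750) and the change 3.14. Hoxd1, which shapes the circuits of pain-sensing neurons, was the one gene of a low number that rose, with 0.42, 0.31 and 0.00 CPM and then 4.19, 4.5 and 2.48. The groups did not overlap, and its change was 2.52 ± 0.24 (limma, Benjamini-Hochberg adjusted p 1.10e-06).

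The genes of cluster c at the tail end rose less. Hoxc12 had 0.30, 0.27 and 2.19 CPM and then 3.40, 2.59 and 3.88, so that E13.5 replicate 3 came close to the P7 libraries. Hoxc13, needed for hair and nails, had 0.30, 0.18 and 0.84 CPM and then 2.03, 1.33 and 1.83. The changes were 1.67 ± 0.37 and 1.30 ± 0.23 (limma, Benjamini-Hochberg adjusted p 0.00152 and 2.36e-04). Without E13.5 replicate 3 they were 2.26 and 1.59. Their cluster d counterparts did not appear: Hoxd12 had 0.95, 0.27 and 2.87 CPM at E13.5 and at most 0.06 at P7, and Hoxd13 had at most 0.67 and 0.03. Hoxb1, a gene of the hindbrain, had at most 0.67 CPM at E13.5 and 0.03 at P7.

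E13.5 spinal cord replicate 3 differed from its replicates along the paralog axis. Among genes with a group mean of at least 0.7 CPM, it lay below both other libraries for 8 of 10 genes numbered 1 to 4 and for 11 of 15 numbered 5 to 9. For numbers 10 to 13 it lay above both for 6 of 8 genes. The median ratio to the mean of replicates 1 and 2 was 0.757, 0.746 and 1.76 in the 3 ranges, with Hoxc12 at 7.77 the highest. In P7 spinal cord, replicate 3 lay above both others for 8 of 10 genes numbered 10 to 13 too, by a median ratio of 1.1, and below both for 8 of 11 numbered 1 to 4, by 0.885. The spread between libraries thus followed the paralog number in both ages. Its source was not tested.

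**Figure D4:**
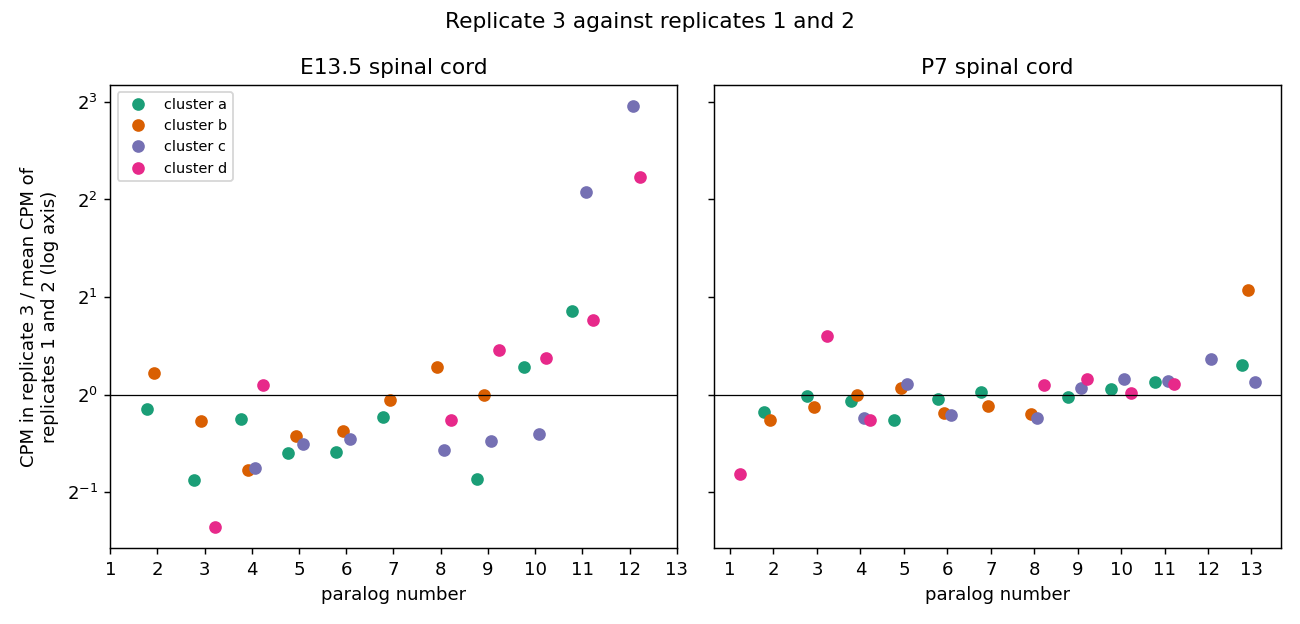
Ratio of CPM in replicate 3 to the mean of replicates 1 and 2, by paralog number, on a log axis, for those of 38 Hox genes with a group mean of at least 0.7 CPM, in E13.5 spinal cord (left) and P7 spinal cord (right). At E13.5 most genes below number 10 lie under 1 and most from number 10 on lie above it, up to 7.77 for Hoxc12. At P7 the ratios lie between 0.571 and 2.10.

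Summed cell type markers of the sorted cells changed with age as well. In these bulk samples the share of a cell type and its RNA per cell cannot be told apart. From E13.5 to P7 in spinal cord the 6 precursor genes went from between 511.7 and 776.9 to between 8534 and 8665 summed CPM. The 7 oligodendrocyte genes, such as Mbp and Mog, went from between 14.7 and 23.6 to between 17815 and 23836. The 8 vascular and leptomeningeal genes, such as Col1a1 and Rgs5, fell from between 11404 and 12860 to between 1212 and 2618, and the 8 mesenchyme genes, such as Prrx1 and Twist1, from between 254.3 and 307.9 to between 46.4 and 65.9. The 9 neuron genes went from between 716.1 and 900.5 to between 431.8 and 467.8, with 5 of the 8 tested called lower, Tubb3 and Stmn2 among them, and Elavl3 higher (1.48). All 8 vascular genes and 7 of 8 mesenchyme genes were called lower. Over all genes tested 18.2% were called lower with age in spinal cord and 16.9% higher. Microglia (4 genes) summed to at most 11.2 CPM in spinal cord. Endothelium (3 genes) went from between 70.9 and 94.7 to between 13.1 and 16.6 CPM, with 2 of the 3 called lower. The only defining markers at 0 in all 3 libraries of a spinal cord group, leaving the forebrain factors aside, were Opalin at E13.5 and Chat at P7. The part of these shifts in the Hox results was not tested.

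The comparison of spinal cord with brain asked how far the Hox genes mark the region. At E13.5, 32 of the 36 tested were called higher in spinal cord and 0 lower, where 5.17% of all genes were called higher and 3.53% lower. The 4 not called were Hoxa13, Hoxb13, Hoxc13 and Hoxd1, all of which appeared later. Hoxc13 and Hoxd1 were called higher in E13.5 spinal cord with a pseudocount of 0.1, with limma-voom and with edgeR. At P7 all 36 were called higher, against 4.35% of all genes, and 0 lower, against 2.27%. All 36 passed the filter of 0.7 CPM through spinal cord libraries, where they were high, so the counts out of 36 are partly set by the filter. Without it 33 Hox genes were called higher at E13.5, with Hoxd12 added, and 36 at P7. The median difference was 4.93 at E13.5 and 3.56 at P7 on the log2 scale, with -0.05 and 0.19 over all genes. The 7 oligodendrocyte genes also differed between regions at P7, with 17815 to 23836 summed CPM in spinal cord against 1383 to 3510 in brain. At E13.5 the 8 vascular genes summed to 11404 to 12860 CPM in spinal cord against 6036 to 9116 in brain. Of these 8, 3 were called higher and 0 lower, and Lum had the lower mean in spinal cord (282.1 against 474.0 CPM). The 6 precursor genes summed to 511.7 to 776.9 CPM in E13.5 spinal cord against 795.2 to 1406 in brain, with 4 called lower and 0 higher. Their part in the Hox differences was not tested. Hoxb9, still called at P7 with a difference of 1.16, was not called with a pseudocount of 1 (0.70), and Hoxc12 at E13.5 (1.24) was not called without E13.5 spinal cord replicate 3 (0.65), with a pseudocount of 1 (0.80) or without any 1 of the 3 E13.5 brain libraries.

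**Figure D5:**
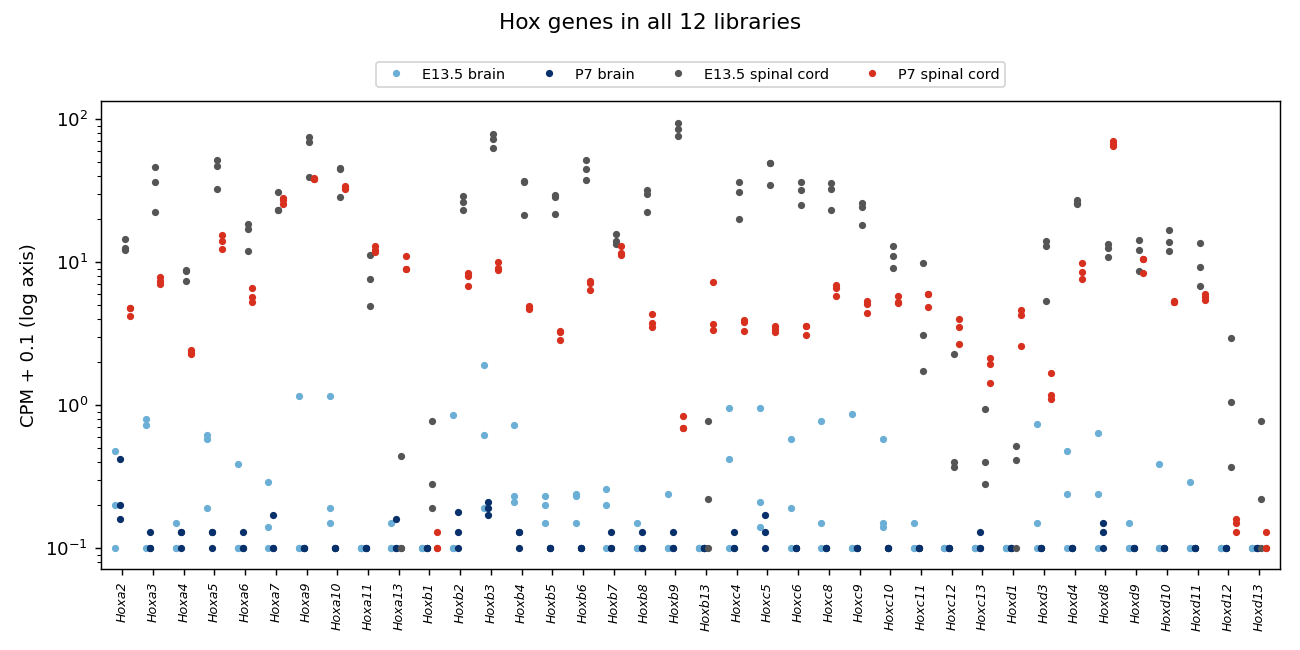
CPM of 38 Hox genes in all 12 libraries on a log axis after adding 0.1, ordered by cluster and paralog number. The E13.5 brain libraries reach 1.82 CPM at most (Hoxb3) and the P7 brain libraries 0.32 (Hoxa2), while most genes in spinal cord lie above 1 CPM at both ages.

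The largest region differences are ranked on the log2(CPM + 0.5) scale, where a gene near 0 in brain takes its value from its spinal cord level. At E13.5 they were Hoxb9 (7.30 ± 0.16), Hoxa9 (6.35 ± 0.37) and Hoxb6 (6.20 ± 0.15). Hoxb6 had 51.6, 45.0 and 37.5 CPM in spinal cord and 0.14, 0.13 and 0.05 in brain, and Hoxb9 had 0.14, 0.00 and 0.00 in brain. By the ratio of pooled reads the order was another one: Hoxa9 stood at 194 (95% exact interval 128 to 309), below Hoxb6 at 415 (201 to 1030) and Hoxb8, with 1 brain read, at 1650 (295 to 65200). At P7 the largest on the log2 scale were Hoxd8 (7.00 ± 0.22), Hoxa9 (6.27 ± 0.37) and Hoxa10 (6.08 ± 0.32; log2, SE). Hoxa9 and Hoxa10 had 0 reads in all 3 P7 brain libraries, which at 3 reads over the group makes them at least 1290-fold and at least 1120-fold higher in spinal cord. Hoxd8 had 0.03, 0.00 and 0.05 CPM there, and pooled reads gave a ratio of 2250 (95% exact interval 771 to 10900). The smallest such ratio for a kept gene with over 3 brain reads was that of Hoxa2, 26.7 (16.5 to 46.3).

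Brain held traces. In E13.5 brain the 3 libraries had 219, 20 and 127 Hox reads, and 30 of the 39 genes had at least 1. The libraries differed in which genes these were. Replicate 1 was led by Hoxa9 and Hoxa10, with 1.05 CPM each, and gave 39.7% of its Hox CPM to cluster c. Replicate 3 was led by Hoxb3 with 1.82 and Hoxb2 with 0.75 CPM and gave 7.87% to cluster c. Replicate 2 had 0.88 CPM over all 39 genes. In P7 brain 55 reads fell on 18 genes and 21 genes were at 0 in all 3 libraries. Hoxa2 led with 17 of the 55 reads, 0.06, 0.10 and 0.32 CPM.

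With age in brain 0 Hox genes were called by limma, where 11.0% of all genes were called higher and 16.7% lower. A fall of more than 2-fold in log2(CPM + 0.5) needs an E13.5 mean above 0.5 CPM. In brain Hoxb3 alone had one (0.81 CPM). The scale thus allowed no lower call for any other Hox gene, and the share over all genes is no measure for them. At an unadjusted p under 0.05, 4 of the 36 were lower. Hoxb3 had 0.52, 0.09 and 1.82 CPM at E13.5 and 0.09, 0.07 and 0.11 at P7, so 1 E13.5 library lay within the P7 range. On the recovered reads limma-voom called 9 genes lower and edgeR's quasi-likelihood test 18.

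Whether spinal cord changed differently from brain was tested as the difference between the 2 age changes. On the log2(CPM + 0.5) scale 19 of the 36 genes fell more in spinal cord, against 6.66% of all genes, and 6 rose more, against 9.66%. The largest were Hoxb9 (-6.14), Hoxc5 (-3.01) and Hoxb8 (-2.70), and Hoxa13 (4.06), Hoxd8 (2.81) and Hoxb13 (2.78). The lower count was 7 with a pseudocount of 0.1, 1 with limma-voom (Hoxb9) and 0 with edgeR, and the higher count was 3 with edgeR, which kept Hoxd8, lost the other 5 and added Hoxa10 and Hoxc10. The direction of 14 genes turned with edgeR, in brain at levels of 1.82 CPM or less. These counts therefore depend on how traces in brain were scaled.

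TALE homeodomain proteins of the Meis and Pbx families bind DNA together with Hox proteins. All 9 of their genes were tested, and in spinal cord 4 were called lower at P7 and 0 higher, where 18.2% of all genes tested were lower and 16.9% higher. Meis2 fell by 1.87, Meis1 by 1.82 and Pbx3 by 1.54 on the log2 scale. In brain 3 were lower, against 16.7% of all genes, Pbx3 (-2.10) and Meis2 (-1.38) among them, and the changes with age differed between the regions for 1 of the 9, Meis1 (-1.88). Between regions Meis1 was higher in spinal cord at E13.5, with 147.4 ± 11.2 CPM against 29.2 ± 5.77, and none of the 9 was called at P7.

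Of 14 genes known to set Hox expression in the embryo 9 were tested. Cdx1, Cdx2 and Cdx4 were too low for the test, with at most 0.06, 0.10 and 0.00 CPM in any library. In spinal cord 6 of the 9 were lower at P7 and 0 higher, against the same 18.2% and 16.9% of all genes. Aldh1a2, which makes retinoic acid, went from 277.5 ± 6.81 to 17.1 ± 8.39 CPM (-4.08). Rarb, a retinoic acid receptor, went from 94.7 ± 8.82 to 7.63 ± 2.43 CPM (-3.58), and Cyp26b1, which degrades retinoic acid, from 9.86 ± 1.19 to 1.08 ± 0.29 CPM (-2.73). In brain 4 were lower (16.7% of all genes), Rarb (-3.50), Nr6a1 (-1.71) and Egr2 (-1.14) among them. At E13.5 spinal cord had more Aldh1a2 (2.85) and Cyp26b1 (1.60) than brain, and at P7 it had more Egr2 (1.07) and less Cyp26b1 (-1.02).

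Of 43 noncoding genes between the ends of the clusters 14 were tested, and in spinal cord 5 of them were lower and 3 higher at P7. Over all genes 18.2% were lower and 16.9% higher, so the share that rose, 3 of 14, was near that of all genes. Gm53, in cluster b, went from 19.8, 20.3 and 11.6 CPM to 0.65, 0.68 and 0.40 (-4.01), and Hoxb5os fell by 2.35 and Hoxaas2 by 1.57. 9530018H14Rik, in cluster a, had 0 reads in all E13.5 spinal cord libraries and 2.59 ± 0.43 CPM at P7. Hoxa11os rose by 1.56 and Hoxd3os1 by 1.15. Strand is not stated for the counting, so antisense genes that share exons with a Hox gene, such as Hoxa11os with Hoxa11 (35.0% of its exon bases), cannot be told apart from it. Between regions 10 of the 14 were higher in spinal cord at E13.5 (5.17% of all genes), led by Gm53 (4.35), and 11 at P7 (4.35% of all genes), led by Hoxa11os (4.0). With age in brain 0 of the 14 were called, where 11.0% of all genes were called higher and 16.7% lower. A lower call needs an E13.5 mean above 0.5 CPM, which in brain Gm11539 alone had (3.06 CPM). The scale thus allowed no lower call for the others, and the share over all genes is no measure for them.

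The genes just outside the clusters were mostly not called. Of 10 neighbours 7 were tested, and 1, Skap2 beside cluster a, was higher in spinal cord at both ages. Over all genes 5.17% were called higher at E13.5 and 4.35% at P7. Skap2 had 30.9 ± 2.91 against 4.99 ± 0.48 CPM at E13.5 and 36.2 ± 0.78 against 3.32 ± 0.97 at P7. Skap1, beside cluster b, was lower at P7 in spinal cord (-1.61) and in brain (-1.17). Over all genes 18.2% and 16.7% were called lower, so the share that fell, 1 of 7, was near that of all genes. Evx1 and Evx2, homeobox genes next to clusters a and d, had at most 2.02 and 1.31 CPM in spinal cord at E13.5 and at most 0.09 at P7.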

How the data were processed

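Per the study's methods, stranded total RNA libraries were aligned with STAR 2.5.0a to the mouse genome mm10 with GENCODE M8 genes, and featureCounts 1.5.0-p1 gave counts per gene, with reads mapping to several places shared fractionally and rounded. Whether counting used strand is not stated. The authors deposited CPM on library sizes rescaled by a normalization factor. In 3 of the 12 columns the sum exceeds 1000000, so these deposited values were read as a signal per rescaled library. All values (100.0%, within 0.001 of a read, or 1e-06 of values above 1000 reads) were whole multiples of what 1 read is worth, so reads were recovered. Symbols and positions came from GENCODE M21 on the same build.

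The 18319 genes that reached 0.7 CPM in 3 or more libraries were fitted on log2(CPM + 0.5) with limma 3.58.1 (R 4.3.3), with an intensity trend and 1 mean per group over all 12 libraries. 5 contrasts were drawn, with Benjamini-Hochberg adjustment over all genes tested. The study used voom, which was run on the recovered reads as an alternative beside edgeR 4.0.16, TMM and median-ratio (DESeq2 1.42.0) scaling, other pseudocounts and filters, a replicate block, averaged P7 replicates 1 and 2, and leaving out each library. The steps were tested on simulated data. Values in every library are given for the 3 called Hox genes that changed most, up and down, in each contrast with no overlap of libraries, for the highest kept and highest lost gene of a paralog number that has both, and for other members where a comparison of paralogs needed them, which were chosen after their values were seen. From the partner, regulator, noncoding and neighbour lists at most 3 called genes per direction and contrast are named. For noncoding genes of the region comparisons the first is named. Evx1, Evx2, the Cdx genes and Gm11539 are named besides. The members and lists were chosen with earlier results of these data known. Floors of 3 reads describe counting error alone, because PCR copies of 1 molecule are not independent. On the recovered reads edgeR called 3402 genes higher and 4099 lower with age in spinal cord, where limma called 3103 and 3333. The values of 1 Hox gene and of other withheld items are not reported here, and plots of single Hox genes show 38 of the 39.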

Additional observations from a re-analysis of the deposited data

Results flagged for a closer look

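For 25 of the 36 tested Hox genes the change with age differed between spinal cord and brain by limma's test of the difference itself, on the log2(CPM + 0.5) scale. In 19 the spinal cord change was the more negative. In cluster a these were Hoxa2 (-1.46), Hoxa3 (-1.33), Hoxa4 (-1.67) and Hoxa6 (-1.17). In cluster b they were Hoxb2 (-1.36), Hoxb3 (-1.96), Hoxb4 (-2.04), Hoxb5 (-2.68), Hoxb6 (-2.33), Hoxb8 (-2.70) and Hoxb9 (-6.14). In cluster c they were Hoxc4 (-2.13), Hoxc5 (-3.01), Hoxc6 (-2.64), Hoxc8 (-1.69) and Hoxc9 (-1.67), and in cluster d Hoxd3 (-2.16), Hoxd4 (-1.18) and Hoxd10 (-1.14). In 6 the spinal cord change was the more positive, namely Hoxa13 (4.06), Hoxb13 (2.78), Hoxc12 (1.67), Hoxc13 (1.27), Hoxd1 (2.52) and Hoxd8 (2.81). No Hox gene exceeded 1.82 CPM in any brain library, and the calls depend on the scale: edgeR kept that of Hoxd8 alone, and limma-voom kept the 6 positive ones and that of Hoxb9.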

How the results depend on the processing

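The 119 Hox values called by limma were recomputed under 21 alternatives each. Of 2499 values 2418 kept direction and call, 60 kept direction alone and 21 reversed. TMM and median-ratio scaling and the replicate block changed none of the 119 calls. All 26 calls for age in spinal cord were kept under every alternative, except that of Hoxc13 with a pseudocount of 1 CPM (0.94). Median-ratio scaling, limma-voom and edgeR each added Hoxc10 as lower to these calls. The reversals were all in the difference between the age changes. With limma-voom they were Hoxa3 (0.94), Hoxb4 (0.14), Hoxb6 (0.38), Hoxc8 (0.51), Hoxc9 (0.08), Hoxd4 (1.26) and Hoxd10 (0.53). With edgeR they were Hoxa3 (2.59), Hoxa6 (1.30), Hoxb2 (0.63), Hoxb3 (0.08), Hoxb4 (0.82), Hoxb5 (1.25), Hoxb6 (1.88), Hoxc4 (1.70), Hoxc6 (2.11), Hoxc8 (3.40), Hoxc9 (3.51), Hoxd3 (2.30), Hoxd4 (3.49) and Hoxd10 (2.95).

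Genes that fell more in spinal cord than in brain numbered 19, and 7 with a pseudocount of 0.1, 1 with limma-voom and 0 with edgeR, which called 3 rather than 6 that rose more. Of the 6 edgeR kept Hoxd8 and lost Hoxa13, Hoxb13, Hoxc12, Hoxc13 and Hoxd1, and both limma-voom and edgeR added Hoxa10 and Hoxc10. Genes called lower with age in brain numbered 0, and 9 with a pseudocount of 0.1, 9 with limma-voom, 18 with edgeR, 3 without the fold threshold and 0 to 3 with a library left out, the 3 (Hoxa3, Hoxb3 and Hoxc4) without E13.5 brain replicate 2. Genes lost in P7 spinal cord numbered 0, and 2 at a detection level of 2 CPM, 1 (Hoxb9) with median-ratio scaling and 0 to 1 with a library left out, Hoxd12 without E13.5 spinal cord replicate 2 and Hoxb9 without P7 spinal cord replicate 2.

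At E13.5 the deviations of same-numbered brain and spinal cord libraries from their group means correlated at 0.31, 0.08 and 0.41. Those of unlike-numbered libraries correlated at -0.44 to 0.2, so number 2 did not stand out. At P7 the same-numbered values were 0.01, 0.02 and 0.04. The numbers were not taken to pair the samples. With the replicate block the counts in spinal cord were again 6 higher and 20 lower. The deposited scaling factors of P7 brain lay 13.1% to 16.3% above TMM factors, those of the other groups 0%. After TMM rescaling the median over all genes moved from 0.19 to 0.02 for region at P7 and from -0.19 to -0.02 for age in brain, and calls over all genes for region at P7 went from 797 higher and 416 lower to 619 and 535. The correlations of change with paralog number in clusters b and d were 0.05 and 0.02 without E13.5 spinal cord replicate 3, an alternative chosen after seeing the data, as were cluster d without Hoxd8 and the pooled read ratios without that replicate. In that library 3 reads come to 0.506 CPM, which limits its low genes.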
